A study of Mus musculus with 15 samples.

Results

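Prostaglandins and leukotrienes are short-range lipid signals made from arachidonic acid, which phospholipase A2 releases from membranes. Cyclooxygenases and prostaglandin synthases turn the acid into prostaglandins, 5-lipoxygenase and its partner protein turn it into leukotrienes, and a dehydrogenase breaks prostaglandins down. In liver the pathway is known for its part in inflammation and in the growth of hepatocytes after injury, and leukocytes are known as a main source of leukotrienes. The genes described here are 10 genes of this pathway, among 27343 genes named on the arrays. They were found by their symbols on the array design, where 16 probes carried them, and 5 of the 10 genes had more than 1 probe. The set was picked on the lower level of Ptgs2, the gene of the inducible cyclooxygenase, in mHep relative to eHep cells, so the differences of the 10 genes between these media are given as a description with no test.

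The study grew expandable hepatocytes from 3 mice for 21 days and measured total RNA on 15 Agilent 1-colour mouse arrays. The mHep arrays, taken here to be cells kept in differentiation medium, numbered 7. They came from the mice C57B6-No1 (3 arrays), 129S1-No1 (3 arrays) and 129S1-No2 (1 array). The eHep arrays, taken to be cells kept in expansion medium, numbered 7 from the same mice in the same split. Both were set against 1 array of primary hepatocytes of C57B6 mice, isolated by collagenase perfusion. All cells came from liver, no transgene or gene deletion was named for any group, and the labels did not say whether the arrays of 1 mouse held separate cultures. P-values between the mice therefore measure the spread between arrays of 1 mouse, which may be technical, and strain and mouse cannot be told apart. By the file headers, the eHep and mHep arrays of 129S1-No1 lay on different slides, as did those of 129S1-No2. In C57B6-No1 only the third array of each medium shared a slide. Medium and slide therefore cannot be told apart in the 129S1 mice, and the part of the slide in the differences between media was not tested. The mHep array of 129S1-No2 carried a source name of eHep cells and was placed by its title, and its hepatocyte marker sum given below lay within that of the other mHep arrays.

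A level below is the log2 processed signal of a gene's brightest probe minus the 75th percentile of the same array, so a value of 0 marks that percentile and a difference of 1 is a doubling. "Well above background" is the scanner's own call for a probe, and such calls covered 48.8% to 61.9% of the probes of each cultured array and 36.3% of those of the primary array. The lowest level that passed this call was -2.12 on the primary array, where only brighter genes could be measured, and lay between -5.92 and -3.73 on the cultured arrays. The summed linear signal of 7 hepatocyte markers was 145 to 1010 in mHep, with 266 on the array of 129S1-No2, and 1.24 to 7.96 in eHep, against 6470 in primary cells. The sum over 10 macrophage markers was 30.2 to 179 in mHep and 5.59 to 50.3 in eHep, against 13.4 in primary cells. Most of the macrophage sum in culture came from Cd14, while Adgre1 and Clec4f, which define Kupffer cells, were not well above background on any cultured array. The leukocyte antigen Ptprc was well above background on 1 mHep array and on no eHep array. Csf1r, Cd68 and Fcer1g were well above background on all 7 mHep and all 7 eHep arrays. Lyz2 was on 6 mHep and 3 eHep arrays, Laptm5 on 1 and 0, and Tyrobp on 0 and 1. For 6 granulocyte and mast cell markers the sum was 0.17 to 172 in mHep and 0.0568 to 10.5 in eHep, against 6.7 in primary cells. For 4 platelet markers it was 1.35 to 7.12 in mHep and 0.0522 to 1.42 in eHep, against 0.388. For 8 endothelial markers it was 0.162 to 0.539 in mHep and 0.116 to 0.624 in eHep, against 15.9. Of the defining genes, Pecam1 and Cdh5 were not well above background in culture, and Stab2 was on all 7 mHep and all 7 eHep arrays. Pecam1 was not well above background on the primary array either. For 9 stellate cell and fibroblast markers the sum was 17.3 to 30.8 in mHep and 15.3 to 33.1 in eHep, against 18.6. Most of it came from Acta2. Dcn was well above background on 7 mHep and 3 eHep arrays, Col1a2 on 5 and 5, and Reln on 1 and 3. Lrat was on 0 and 2, Col1a1 on 0 and 3, and Pdgfrb, Des and Lum on none. For 4 mesothelial markers the sum was 8.68 to 292 in mHep and 77.4 to 380 in eHep, against 0.204. In culture nearly all of this sum came from Msln. Upk3b was well above background on 3 mHep and 4 eHep arrays, Lrrn4 on 0 and 1, and Wt1 on none. For 6 biliary markers the sum was 149 to 849 and 268 to 618, against 5.38. The part of these other cells in the results below was not tested, and in bulk RNA fewer cells of a type and less RNA per cell cannot be told apart.

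Promoters of 3 genes are shown because the genes stood at the centre of the difference between media: Ptgs2 and Pla2g4a, which were both lower in mHep, and Hpgd, which was higher. Each is the stretch of 250 bases before the RefSeq gene start in the GRCm38.p6 build, printed 5′ to 3′ on the strand of the gene. The windows are chr1:150099781-150100030 on the plus strand for Ptgs2, chr1:149961291-149961540 on the minus strand for Pla2g4a and chr8:56294302-56294551 on the plus strand for Hpgd. Capitals mark matches to any of 6 motifs searched on both strands.
Ptgs2: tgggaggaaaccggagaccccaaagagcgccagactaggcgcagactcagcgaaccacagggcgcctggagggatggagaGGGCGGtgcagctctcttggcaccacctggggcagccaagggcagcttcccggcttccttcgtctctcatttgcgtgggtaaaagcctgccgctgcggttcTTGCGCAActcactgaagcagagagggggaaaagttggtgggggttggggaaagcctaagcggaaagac
Pla2g4a: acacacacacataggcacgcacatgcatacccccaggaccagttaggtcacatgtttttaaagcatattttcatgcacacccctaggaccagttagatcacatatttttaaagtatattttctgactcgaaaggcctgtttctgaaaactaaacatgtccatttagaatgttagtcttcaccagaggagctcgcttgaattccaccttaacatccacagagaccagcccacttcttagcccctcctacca
Hpgd: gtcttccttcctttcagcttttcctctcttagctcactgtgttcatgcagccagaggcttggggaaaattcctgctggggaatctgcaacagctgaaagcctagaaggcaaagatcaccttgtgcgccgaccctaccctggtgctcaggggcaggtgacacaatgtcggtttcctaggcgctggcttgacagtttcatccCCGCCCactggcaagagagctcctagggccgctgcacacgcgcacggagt
The Ptgs2 window held 1 match to the C/EBP site TTGCNNAA, whose first base lay 69 bases before the gene start, and 1 match to the GC box GGGCGG, 170 bases before it. The Hpgd window held 1 GC box in reverse, 50 bases before the start, and the Pla2g4a window shown held no match to any motif. The C/EBP site was found in 9.57% and the GC box in 32.7% of 32841 RefSeq promoter windows of the same length. Windows were found for 8 of the 10 genes, of which 5 held a GC box (Ptgs2, Ptges, Hpgd, Alox5 and Ptger4) and Ptgs2 alone held the C/EBP site. The TATA box TATAAA, in 12.4% of all windows, lay only in a second window of Pla2g4a. The E-box CACGTG, the cyclic AMP element's TGACG core and the HNF4A site CAAAGTCC were in no window of these genes, against 6.02%, 17.8% and 1.2% of all windows. Ptgs2 and Pla2g4a are also neighbours on chromosome 1 in that build, 139 kb apart, with the 2 non-coding genes Gm19136 and Ptgs2os and no coding gene between them. A motif match is a description of these letters and not of a factor that binds there.

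**Figure D1:**
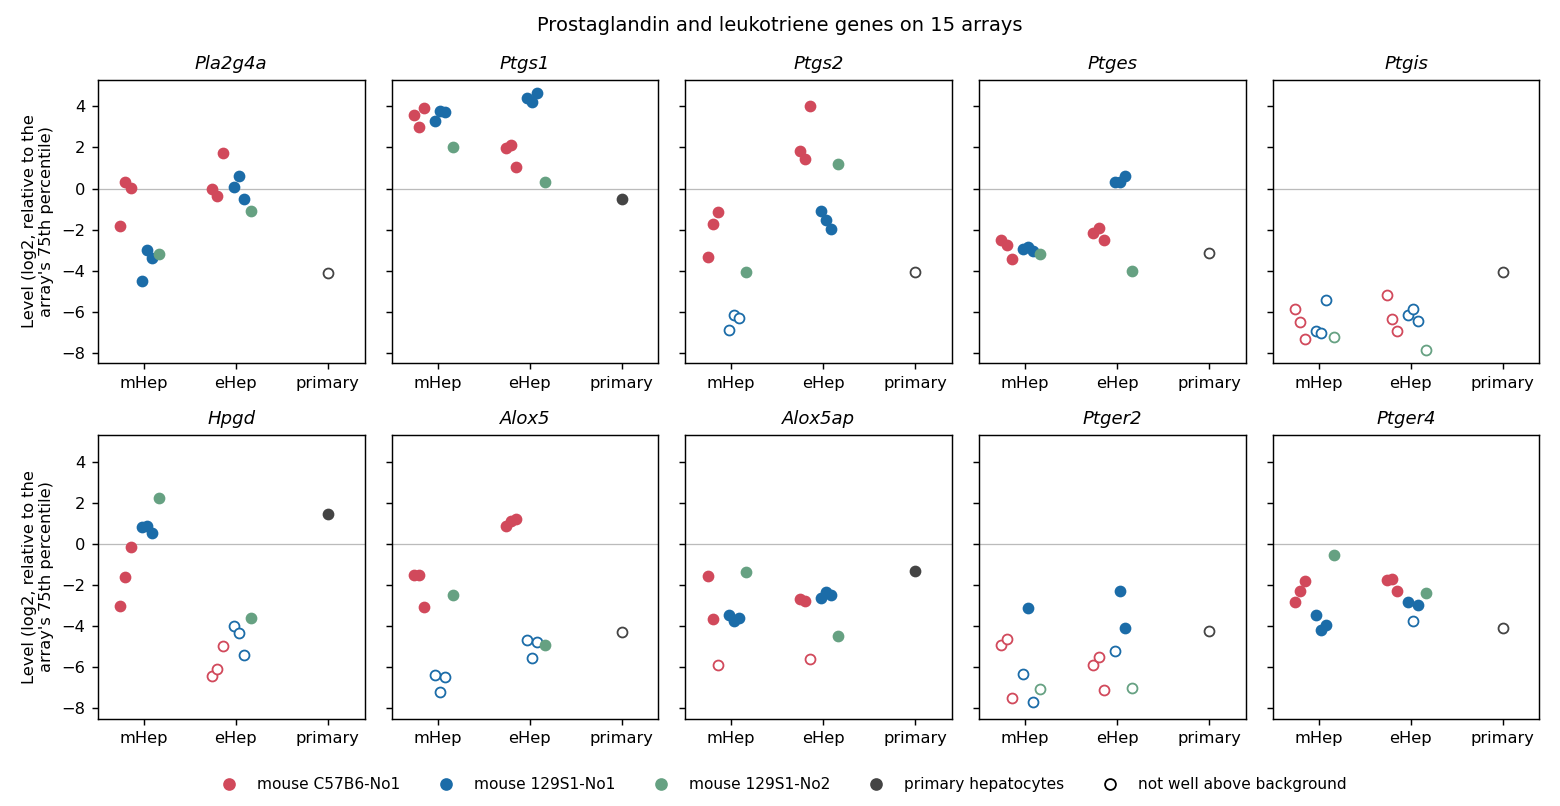
Levels of the 10 genes on each array, as log2 signal relative to the array's 75th percentile, with mHep left of eHep and primary hepatocytes at the right. Each point is 1 array, coloured by mouse, and open points were not well above background. Hpgd was higher on every mHep array than on every eHep array, Ptgs2 was lower in mHep within each mouse, and Alox5 was dark in both media of 129S1-No1.

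Pla2g4a and Ptgs2, which act in turn in prostaglandin synthesis, both had lower mean levels in mHep than in eHep cells of all 3 mice. Pla2g4a encodes cytosolic phospholipase A2, which frees arachidonic acid for the later enzymes, and its probe lay at chr1:151677133-151677192 on the minus strand of the mm9 build. In C57B6-No1 its level was -1.80, 0.31 and 0.04 on the mHep arrays and 0.00, -0.35 and 1.75 on the eHep arrays. In 129S1-No1 it was -4.52, -2.98 and -3.37 in mHep and 0.06, 0.61 and -0.49 in eHep. The media did not overlap in 129S1-No1 and overlapped in C57B6-No1. In 129S1-No2 it was -3.19 in mHep and -1.11 in eHep, and on the primary array, at -4.09, the probe was not well above background. The mHep minus eHep difference was -0.95, -3.69 and -2.08 in C57B6-No1, 129S1-No1 and 129S1-No2, with a mean of -2.24 ± 1.38 (SD, n = 3 mice) or 4.71-fold lower in mHep. A second probe of Pla2g4a, which spans a splice junction, gave -2.22, and the brightest probe gave -1.89 on arrays of the earlier scan and -2.13 on those of the later one.

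Ptgs2 is the gene on whose difference between media the set was picked, and its probe lay at chr1:151954744-151954803 on the plus strand (mm9). In C57B6-No1 its level was -3.34, -1.73 and -1.14 on the mHep arrays and 1.85, 1.42 and 4.04 on the eHep arrays. The mHep arrays of 129S1-No1 were at -6.88, -6.14 and -6.28, all 3 not well above background, and the eHep arrays at -1.08, -1.53 and -1.95. In 129S1-No2 it was -4.05 in mHep and 1.21 in eHep. No mHep array reached an eHep array of its own mouse, yet the brightest mHep array of C57B6-No1 stood above 2 of the 3 eHep arrays of 129S1-No1. The difference was -4.51, -4.91 and -5.26 in C57B6-No1, 129S1-No1 and 129S1-No2, with a mean of -4.89 ± 0.38 (SD, n = 3 mice). This mean and its SD rest in part on the dark mHep arrays of 129S1-No1, and with dim readings raised to the background limit the mean was -4.45. In 129S1-No1 itself mHep had only a bound, and eHep was at least 11.9-fold higher. A bound here and below sets each dim reading to the lowest level called well above background on its array where that is higher. The second Ptgs2 probe gave a difference of -4.60, and normexp background correction gave -2.91. Within the earlier scan the difference was -5.22 and within the later scan -4.54. The 6 means of a mouse in a medium (± SD of 3 arrays, or 1 array) stood in the order C57B6-No1 eHep (2.44 ± 1.41), 129S1-No2 eHep (1.21), 129S1-No1 eHep (-1.52 ± 0.43), C57B6-No1 mHep (-2.07 ± 1.14), 129S1-No2 mHep (-4.05) and 129S1-No1 mHep (-6.43 ± 0.39, dark). Primary cells, at -4.07 on an array whose limit was -2.12, were not well above background and have no place in that order. Among neighbours in that order, the eHep cells of C57B6-No1 and 129S1-No2 lay within 1 SD of each other, as did 129S1-No1 eHep and C57B6-No1 mHep. The eHep arrays of all mice averaged at least 7.09-fold above the primary array.

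Ptgs1, the constitutive cyclooxygenase, was well above background on all 15 arrays and did not follow Ptgs2. In C57B6-No1 its level was 3.58, 2.98 and 3.91 on the mHep arrays and 1.99, 2.12 and 1.04 on the eHep arrays, so mHep was higher on every array. For 129S1-No1 the levels were 3.27, 3.78 and 3.75 in mHep and 4.42, 4.19 and 4.67 in eHep, so here mHep was lower on every array. In 129S1-No2 it was 2.00 in mHep and 0.32 in eHep, and in primary cells -0.50. The difference between media was 1.77, -0.83 and 1.69 in C57B6-No1, 129S1-No1 and 129S1-No2, and its mean of 0.88 ± 1.48 (SD, n = 3 mice) lay within the spread between mice.

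Ptges encodes the inducible microsomal synthase that makes prostaglandin E2 from the product of the cyclooxygenases. In C57B6-No1 its level was -2.49, -2.75 and -3.41 on the mHep arrays and -2.18, -1.92 and -2.51 on the eHep arrays. In 129S1-No1 it was -2.95, -2.83 and -3.03 in mHep and 0.33, 0.33 and 0.59 in eHep. The 3 eHep arrays of 129S1-No1 stood above all others. In 129S1-No2 the level was -3.19 in mHep and -4.03 in eHep, and on the primary array, at -3.12, it was not well above background. The difference between media was -0.68, -3.35 and 0.85 in C57B6-No1, 129S1-No1 and 129S1-No2, a mean of -1.06 ± 2.12 (SD, n = 3 mice) that lay within the spread between mice. Ptgis, which encodes prostacyclin synthase, was not well above background on any of the 15 arrays (-7.33 to -5.45 in mHep, -7.87 to -5.17 in eHep and -4.04 in primary cells) and was not tested.

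Hpgd encodes 15-hydroxyprostaglandin dehydrogenase, the enzyme that inactivates prostaglandins, and it was higher in mHep in all 3 mice, with its probe at chr8:58799399-58799458 on the plus strand (mm9). In C57B6-No1 its level was -3.0, -1.61 and -0.12 on the mHep arrays and -6.40, -6.06 and -4.98 on the eHep arrays, and none of these eHep arrays was well above background. In 129S1-No1 it was 0.81, 0.87 and 0.54 in mHep and -4.01, -4.34 and -5.40 in eHep, where again no array was well above background. In 129S1-No2 it was 2.24 in mHep and -3.62 in eHep. Every mHep array stood above every eHep array, and the primary array, at 1.46, lay among the brighter mHep arrays. The difference was 4.24, 5.33 and 5.85 in C57B6-No1, 129S1-No1 and 129S1-No2, a mean of 5.14 ± 0.82 (SD, n = 3 mice). As bounds, mHep was at least 8.2-fold above eHep in C57B6-No1 and at least 27.1-fold above it in 129S1-No1. The second Hpgd probe gave a difference of 5.34, and normexp background correction gave 2.98. Within the earlier scan the difference was 5.35 and within the later scan 4.63. Hepatocyte markers were also higher in mHep than in eHep in every mouse (the sums above), and their part in the Hpgd difference was not tested.

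The leukotriene genes showed no common direction between media. Alox5 encodes 5-lipoxygenase, which makes the first leukotriene, and Alox5ap encodes the membrane protein that hands arachidonic acid to it. In C57B6-No1 the Alox5 level was -1.51, -1.49 and -3.07 on the mHep arrays and 0.86, 1.1 and 1.22 on the eHep arrays. In 129S1-No1 it was -6.35, -7.22 and -6.47 in mHep and -4.66, -5.53 and -4.76 in eHep, and none of these 6 arrays was well above background. In 129S1-No2 it was -2.48 in mHep and -4.91 in eHep, both well above background. Alox5 was thus measured in both media of 2 mice, lower in mHep in C57B6-No1 (-3.08) and higher in mHep in 129S1-No2 (2.42). On the primary array, at -4.30, it was not well above background.

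Alox5ap had levels of -1.55, -3.66 and -5.90 on the mHep arrays and -2.67, -2.77 and -5.61 on the eHep arrays of C57B6-No1. The third array of each medium, the darkest, belonged to an earlier scan than the others. On that eHep array the sums of all 8 marker lists were the lowest of this mouse in eHep, with 5.59 for macrophages and 1.24 for hepatocytes. On that mHep array 7 of the 8 sums were the lowest of this mouse in mHep, with 60.8 for macrophages, and the granulocyte and mast cell sum, 172, was the highest. The part of the scan and of these cells was not tested. In 129S1-No1 the level was -3.43, -3.74 and -3.61 in mHep and -2.63, -2.35 and -2.48 in eHep. In 129S1-No2 it was -1.34 in mHep and -4.46 in eHep, and in primary cells -1.29. The mean difference of 0.66 ± 2.20 (SD, n = 3 mice) lay within the spread between mice.

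Ptger2 and Ptger4 encode receptors for prostaglandin E2 that raise cyclic AMP. Ptger4 was well above background on 13 of the 14 cultured arrays and not on the primary array. Its level ran between -4.20 and -0.51 in mHep, with a median of -2.83, and between -3.75 and -1.70 in eHep, with a median of -2.37, so the media overlapped. The difference was -0.38, -0.70 and 1.86 in C57B6-No1, 129S1-No1 and 129S1-No2 (mean 0.26 ± 1.40, SD, n = 3 mice). A second Ptger4 probe, laid on another transcript, was dark on all 15 arrays. Ptger2 was well above background on 3 arrays, all of 129S1-No1, at -3.10 in mHep and at -2.29 and -4.10 in eHep, and was not tested.

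**Figure D2:**
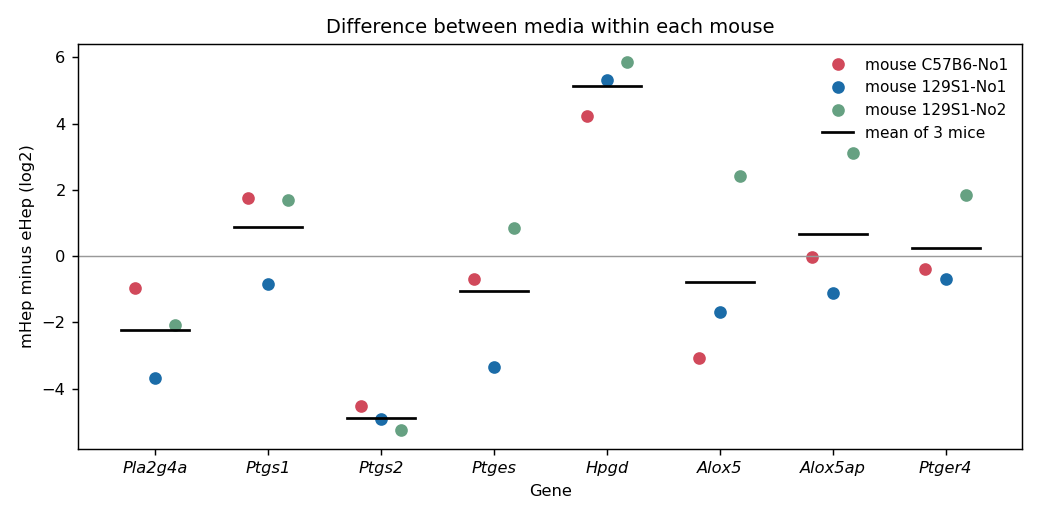
Difference between media, mHep minus eHep on the log2 scale, for the 8 genes bright enough to test. Each point is 1 mouse and each bar is the mean of 3 mice, and only Ptgs2, Pla2g4a and Hpgd have all 3 mice on the same side of 0.

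In the fit of mHep against eHep, 1.83% of the 14596 genes tested passed an adjusted p of 0.05 (1.38% higher and 0.452% lower in mHep), with a median difference of -0.10 over all genes. The 8 genes tested had a median of -0.26, and since this contrast chose them, nothing is read from their own calls. The patterns over the 15 arrays most like those of 3 of the genes were found among 13214 genes by Pearson's r, and the arrays share mice, media and scans. For Ptgs2 they were Galc (r = 0.981), Zfp365 (0.96), Ccnh (0.945), Gja1 (0.945) and Trmt6 (0.943). For Ptges they were Nus1 (0.968), Cndp2 (0.967) and Coro1b (0.953), and for Hpgd they were Acnat1 (0.97), Ppm1b (0.954) and Snrk (0.947). Ptgs2 was well above background on 11 of the 15 arrays, Ptges on 14 and Hpgd on 9, so r rests in part on dim readings.

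Levels differed between C57B6-No1 and 129S1-No1 in 7 of the 8 genes, 4 higher and 3 lower in C57B6-No1. To be tested, a gene had to be called above background by the scanner on the 3 arrays of some mouse in some medium. Alox5 passed that filter only through C57B6-No1, as did Pla2g4b, Ptger3 and Ptgfr named below, and Cysltr1 passed only through 129S1-No1. These genes were bound to differ, so the counts, and the p-values of these genes for level and response, are a description. This comparison takes the mean of both media, so it does not use the difference between media. Such calls were common over all genes: 34.9% of the 15742 genes tested passed, 17.1% higher and 17.8% lower, with a median of -0.10 against 0.39 for the 8 genes. All adjusted p-values below are from limma with the Benjamini-Hochberg correction over all genes tested, on 6 arrays of each mouse.

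Alox5 was at least 16.9-fold higher in C57B6-No1 over both media. The fitted difference, 5.35 ± 0.31 (SE, adjusted p = 3.41e-07), takes the dim readings of 129S1-No1 at face value, and normexp background gave 2.15 (adjusted p = 0.00425). By medium the bound was at least 8.42-fold in mHep and at least 33.9-fold in eHep. All 6 arrays of C57B6-No1 stood above all 6 of 129S1-No1, and within the later scan the difference was 5.57 (adjusted p = 1.3e-07). The granulocyte and mast cell sum was 92.4 to 172 in C57B6-No1 mHep against 4.66 to 7.92 in 129S1-No1 mHep, and 0.161 to 0.295 in C57B6-No1 eHep against 6.96 to 10.5 in 129S1-No1 eHep. S100a8 and S100a9 carried the sum in C57B6-No1 mHep, where Mpo, Elane and Cpa3 were not well above background. Kit was well above background on 1 of these arrays, the third, at -4.01. The part of these cells in the Alox5 difference was not tested.

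Ptgs2 was 4.16 ± 0.49 higher in C57B6-No1 (adjusted p = 6.82e-05), in both media, with a bound of at least 8.13-fold in mHep, and normexp background gave 2.14 (adjusted p = 0.0117). Pla2g4a was 1.77 ± 0.48 higher (adjusted p = 0.015) and Ptger4 was 1.42 ± 0.25 higher (adjusted p = 0.00101). Background correction by normexp took both below the threshold, at 0.97 (adjusted p = 0.172) for Pla2g4a and 0.32 (adjusted p = 0.528) for Ptger4. The genes higher in C57B6-No1 were thus a phospholipase, a cyclooxygenase, 5-lipoxygenase and a receptor.

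In the other direction, Hpgd was -1.77 ± 0.46 (adjusted p = 0.0117), Ptgs1 was -1.41 ± 0.24 (adjusted p = 0.000854) and Ptges was -1.28 ± 0.18 (adjusted p = 0.000284), all lower in C57B6-No1. Alox5ap differed by -0.65 ± 0.70 and did not pass (adjusted p = 0.499). It changed sign within the later scan, at 0.38 (adjusted p = 0.383), which leaves out the dark arrays just named for C57B6-No1. With the slide as a block, Ptgs1 was -0.53 (adjusted p = 0.282) and Pla2g4a was 0.75 (adjusted p = 0.533), and neither passed. Within the later scan the 7 genes passed with the same signs, with Ptgs2 at 3.53, Pla2g4a at 1.32 and Hpgd at -2.35. The earlier scan held only C57B6-No1 arrays of these mice, so it gives no value of its own.

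**Figure D3:**
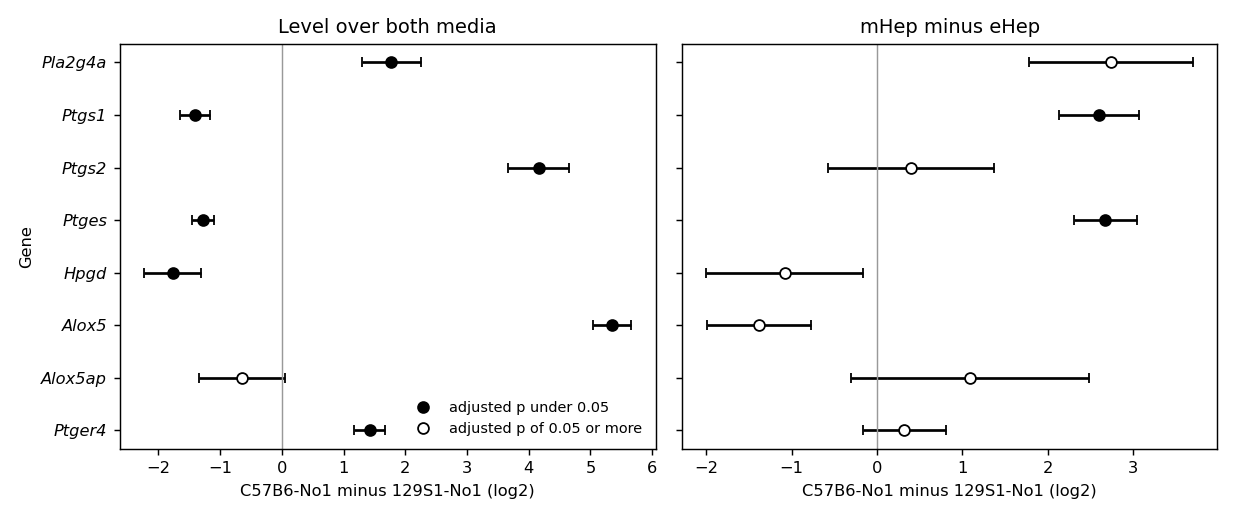
Differences between the mice, C57B6-No1 minus 129S1-No1 on the log2 scale, for the level over both media (left) and for the difference between media (right). Points are limma estimates from 6 arrays of each mouse, bars are standard errors, and filled points passed an adjusted p of 0.05. Alox5 and Ptgs2 have the largest level differences, and Ptgs1 and Ptges differ in their response to the medium.

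The response to the medium itself differed between these mice for 2 of the 8 genes, Ptgs1 and Ptges, against 16.6% of all genes tested. Ptgs1 was higher in mHep in C57B6-No1 and lower in mHep in 129S1-No1, and the responses differed by 2.60 ± 0.47 on the log2 scale (limma, adjusted p = 0.00518). The Ptges difference between media was -0.68 in C57B6-No1 and -3.35 in 129S1-No1, and the responses differed by 2.67 ± 0.37 (adjusted p = 0.00104). Both genes were well above background on all 12 arrays. Within the later scan the differences were 2.05 (adjusted p = 0.00254) for Ptgs1 and 2.78 (adjusted p = 0.000104) for Ptges. With normexp background Ptges was at 1.61 (adjusted p = 0.197).

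The other 6 genes did not pass for this difference. Ptgs2 differed by 0.40 ± 0.97 (adjusted p = 0.789), a sign that turned with normexp background (-2.46, adjusted p = 0.227), and Hpgd by -1.08 ± 0.92 (adjusted p = 0.427). Ptgs2 was dark on the mHep arrays of 129S1-No1 and Hpgd on the eHep arrays of both mice. A like response of the mice was therefore not measured for either gene. Pla2g4a had a value of 2.74 ± 0.96 (adjusted p = 0.076), which passed with the scan as a block (adjusted p = 0.0206), within the later scan (3.12, adjusted p = 0.0237), without the third eHep array of C57B6-No1 (3.38, adjusted p = 0.0257) and without the first mHep array of that mouse (3.39, adjusted p = 0.0302). Alox5 had -1.38 ± 0.61 (adjusted p = 0.144), which passed with dim readings raised to the background limit (-2.01, adjusted p = 0.0284) and with the mean of all its probes (-2.17, adjusted p = 0.0395).

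Against primary hepatocytes, none of the 8 genes passed for the mean of both media, at an adjusted p of 0.05 and a log2 difference of at least 1. Over all 15167 genes 12.9% passed, 4.87% higher and 8.06% lower in culture, with a median of -0.25 against 1.35 for the 8 genes. Unadjusted p-values were under 0.05 for 3 of the 8 and for 4911 of all 15167 genes. The fit set 3 mouse means against 1 primary array and had to assume that primary cells vary as much as the mouse means do. Only Ptgs1, Hpgd and Alox5ap of the 8 were well above background on the primary array. Ptgs1 differed by 3.09 ± 1.18 (SE, adjusted p = 0.156), at 2.59 ± 1.43 (SD, n = 3 mice) in cultured cells and -0.50 in primary cells. Hpgd was at -2.10 ± 1.51 in cultured cells and 1.46 in primary cells, a difference of -3.57 ± 1.24 (adjusted p = 0.132). Alox5ap was at -3.21 ± 0.42 in cultured cells and -1.29 in primary cells, -1.92 ± 0.59 (adjusted p = 0.104). With the arrays of C57B6-No1 alone, the strain of the primary cells, 5 genes were higher, 4 of them dark on the primary array, and 1 was lower. Ptgs1 was at 3.1 (adjusted p = 0.00587) and Hpgd at -5.16 (adjusted p = 0.00801). In that fit 4755 of all 15167 genes passed, 2067 of them higher, but it counts arrays of 1 mouse as samples. The other 5 genes were dark on the primary array, so their fitted differences are not measured sizes. Pla2g4a was at least 1.74-fold higher in culture, and its fitted 2.77 ± 0.99 (adjusted p = 0.139) became 5.04 (adjusted p = 0.0355) with quantile normalization, under which the median of all genes was 0.29, and 0.80 (adjusted p = 0.581) with dim readings raised to the limit. Ptger4 has no bound above 1, and its fitted 1.74 ± 0.94 (adjusted p = 0.27) became 2.36 (adjusted p = 0.0405) within the earlier scan and -0.24 (adjusted p = 0.869) with dim readings raised. The primary array had the lowest signal of the series and shared its slide and earlier scan with arrays of C57B6-No1 and 129S1-No2, whose part was not tested.

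Other genes of the pathway, listed by role, numbered 57, of which 55 were named on the arrays. Between mHep and eHep, 3 of the 29 tested had an unadjusted p under 0.05 (limma), as did 2182 of all 14596 genes. After adjustment 1 of the 29 was higher in mHep and 0 were lower, against 1.38% and 0.452% of all genes. The one was Cyp4f14, a cytochrome P450 that breaks down leukotriene B4. Its level was 2.31, 1.66 and 4.12 on the mHep arrays and -3.38, -4.36 and -6.88 on the eHep arrays of C57B6-No1. In 129S1-No1 it was 0.12, -0.94 and -0.73 in mHep and -4.05, -3.90 and -3.69 in eHep, and in 129S1-No2 it was 3.28 in mHep and -1.98 in eHep. No mHep array overlapped an eHep array, and 4 of the 7 eHep arrays were not well above background. Cyp4f14 passed the filter on dim genes only through mHep, where it was bright, so its test is a description. The difference was 5.40 ± 0.79 (SE, adjusted p = 0.0358, n = 3 mice), or 5.15 (adjusted p = 0.0198) with dim readings raised to the limit, and it missed the threshold with quantile normalization (5.52, adjusted p = 0.0804) and without the mouse as a block (adjusted p = 0.237). By role, none of 4 phospholipases, 9 prostanoid synthases, 4 genes of breakdown and transport, 2 prostanoid receptors and 2 leukotriene receptors passed. The phospholipase gene Pla2g12b, higher in mHep in all 3 mice, narrowly missed the threshold (4.19 ± 0.70, SE, limma adjusted p = 0.0522).

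Against primary cells, 2 of these 29 genes were higher and 2 lower in culture, a share near the 12.9% of all genes, and so no result about the pathway. Mgst2, a microsomal transferase able to make leukotriene C4, had levels between 5.45 and 6.65 in mHep and between 5.02 and 7.47 in eHep, and was not well above background in primary cells. It was at least 315-fold higher in culture, with a fitted difference of 10.17 ± 0.73 (adjusted p = 0.00925) that normexp background put at 6.91. Abcc4, a pump that exports prostaglandins, had levels between 3.07 and 4.51 in mHep and between 4.28 and 5.33 in eHep, again with no call in primary cells. It was at least 80.8-fold higher in culture, with a fitted difference of 8.67 ± 0.51 (adjusted p = 0.00925) that normexp background put at 5.27. Both genes passed the filter only through the cultured arrays, where they were bright, so these tests are a description. Cyp4f14 was lower in culture, with a difference of -8.78 ± 1.19 (adjusted p = 0.0192), with 7.90 in primary cells. Cyp4f18, a relative of it that also acts on leukotriene B4, was also lower, with a difference of -6.13 ± 0.64 (adjusted p = 0.0127) and levels between -3.38 and -0.98 in mHep and between -5.42 and -2.33 in eHep, against 3.19 in primary cells.

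**Figure D4:**
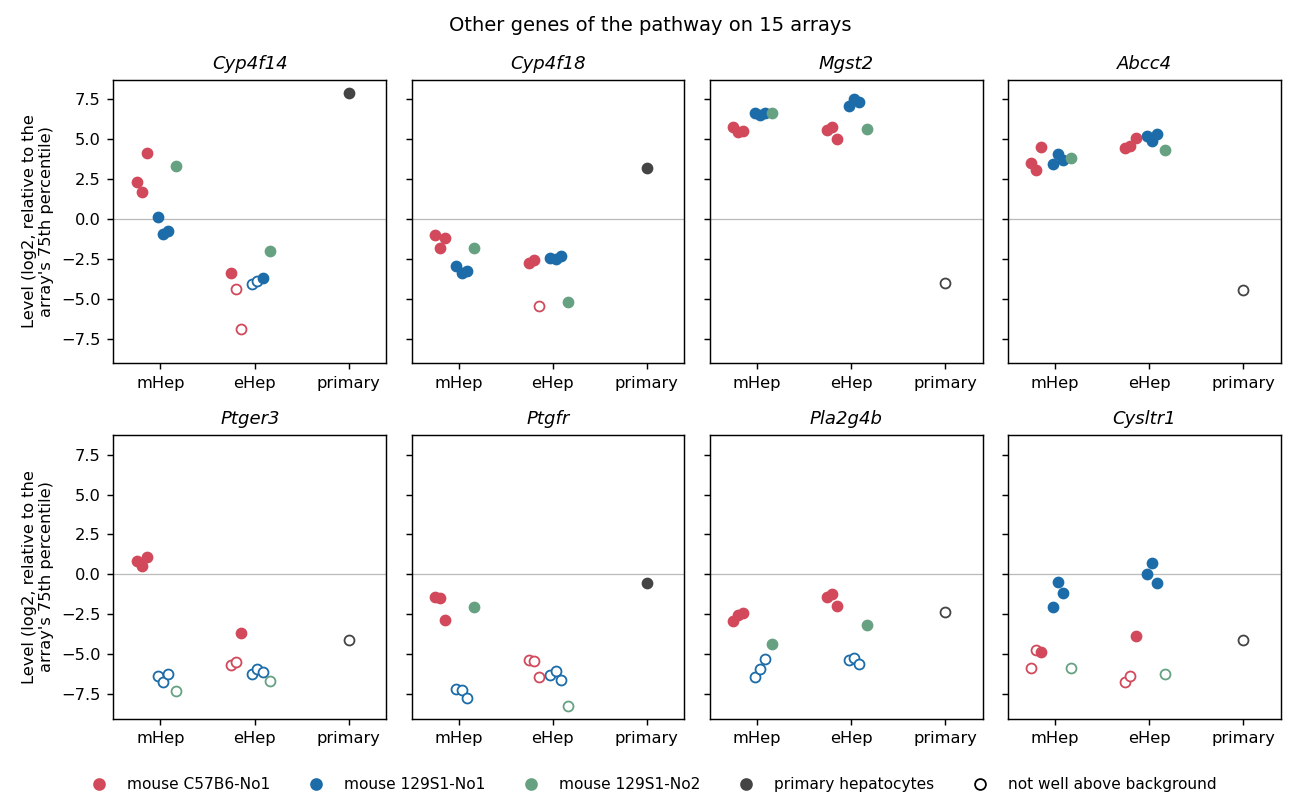
Levels of 8 other genes of the pathway on each array, as log2 signal relative to the array's 75th percentile, drawn like the plot of the 10 genes. Mgst2 and Abcc4 were bright on all cultured arrays and dark in primary cells, and Ptger3 stood above its other arrays on the 3 mHep arrays of C57B6-No1.

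Between the mice, 8 of the 35 other genes tested were higher and 9 lower in C57B6-No1, with a median of -0.19. Over all genes 17.1% were higher and 17.8% lower. Pla2g4b, Ptger3, Ptgfr, Akr1c18, Cysltr1 and Dpep2 among the genes that passed met the filter through 1 mouse only, so these counts are a description. Cysltr1, a receptor for cysteinyl leukotrienes, was lower in C57B6-No1, with a difference of -4.83 ± 0.50 (adjusted p = 2.94e-05). Its level in C57B6-No1 was -5.86, -4.73 and -4.86 in mHep and -6.74, -6.37 and -3.85 in eHep, against -2.01, -0.44 and -1.16 in mHep and 0.03, 0.72 and -0.56 in eHep of 129S1-No1. Alox5 and this receptor differed in opposite directions, but the filter fixed that in advance. Alox5 passed it only through C57B6-No1 and Cysltr1 only through 129S1-No1. The secreted phospholipase gene Pla2g12b was lower too, at -3.67 ± 0.43 (adjusted p = 7.4e-05). Ptger3, another prostaglandin E2 receptor, was 4.20 ± 0.32 higher (adjusted p = 2.73e-06). The cytosolic phospholipase gene Pla2g4b was 3.57 ± 0.22 higher (adjusted p = 5.16e-07), at least 5.53-fold, and was dark on all 6 arrays of 129S1-No1, but normexp background left 0.63 (adjusted p = 0.315).

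For the response to the medium, 8 of the 35 passed and all 8 had the higher mHep minus eHep value in C57B6-No1, with a median of 0.83 against 0.26 over all genes. Over all genes 16.6% passed, and of those 62.1% were higher in C57B6-No1. They were 2 prostanoid receptors, 2 prostanoid synthases, 1 gene of breakdown and transport and 3 lipoxygenase and leukotriene genes. Among them Ptger3, Ptgfr and Akr1c18 met the filter through C57B6-No1 only and were dark on all 6 arrays of 129S1-No1. Their response in 129S1-No1 was thus not measured, and these counts and their direction are a description. Ptger3 had levels of 0.82, 0.54 and 1.08 on the mHep arrays and -5.69, -5.46 and -3.63 on the eHep arrays of C57B6-No1. The last of these eHep arrays was well above background, whereas all 6 arrays of 129S1-No1, both of 129S1-No2 and the primary array were dark. Its level in mHep was at least 60.1-fold higher in C57B6-No1. The fitted responses differed by 6.08 ± 0.64 (adjusted p = 0.000234), or by 3.15 (adjusted p = 0.0454) with normexp background, and since Ptger3 and Ptgfr passed the filter only through C57B6-No1 mHep, a higher response there was built in. Ptgfr, the receptor of prostaglandin F2 alpha, had levels of -1.42, -1.48 and -2.87 in C57B6-No1 mHep and was dark in eHep of that mouse and on all 6 arrays of 129S1-No1. It was also measured in 129S1-No2 mHep, at -2.04, and in primary cells, at -0.52. The Ptgfr responses differed by 4.86 ± 0.58 (adjusted p = 0.000494), though normexp background left 1.16 (adjusted p = 0.528). Cyp4f14 differed by 4.20 ± 1.16 (adjusted p = 0.0331) and Cyp4f18 by 3.03 ± 0.86 (adjusted p = 0.0367). Leaving out any 1 array of 129S1-No1 ended both calls, at adjusted p between 0.0506 and 0.0822. Cyp4f18 also missed the threshold with normexp background (1.21, adjusted p = 0.351), with no filter on dim genes (adjusted p = 0.0524) and without the first mHep array of C57B6-No1 (2.86, adjusted p = 0.0741). In C57B6-No1 mHep, where these receptors were bright, the granulocyte and mast cell sum, carried by S100a8 and S100a9, was also highest, and its part was not tested.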

How the data were processed

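Total RNA of 15 samples was measured on Agilent 1-colour arrays. Per the file headers, Feature Extraction made the deposited processed intensity of each spot after background subtraction. The deposited log2 value table of the authors, used as an alternative, has no stated method. Spots of a probe were averaged, intensities were put on the log2 scale, and each array's 75th percentile was subtracted. A gene took its probe of highest mean level. Between media, a tested gene had to be called above background by the scanner on every array of 2 or more mice in 1 medium. Against primary cells, that call on the primary array also sufficed. limma 3.58.1 in R 4.3.3 (lmFit, eBayes) gave p-values with Benjamini-Hochberg adjustment over all genes tested, at a threshold of 0.05. The media were compared on means per mouse with the mouse as a block. That pairing comes from the labels, and the deviations of the same mouse in both media correlated at 0.397, 0.563 and 0.539. The mice C57B6-No1 and 129S1-No1 were compared on 12 arrays, and cultured mouse means were set against 1 primary array. The fits were also run on simulated data with known changes, which held the spread between arrays of a mouse and none between mice. That simulation cannot show how the fits on mouse means deal with the spread between mice. Other pathway genes were named if they passed: in mHep against eHep, against primary cells, and up to 4 by size in each comparison of the mice. The number of arrays limits the precision. The members, lists and rules were chosen with earlier results of these data known.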

Additional observations from a re-analysis of the deposited data

Results flagged for a closer look

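Responses to the medium (mHep minus eHep, log2) that differed between C57B6-No1 and 129S1-No1 by a limma interaction test are given here as C57B6-No1 minus 129S1-No1. The values were 2.60 for Ptgs1 (adjusted p = 0.00518) and 2.67 for Ptges (adjusted p = 0.00104). Among other pathway genes they were 6.08 for Ptger3 (adjusted p = 0.000234), 4.86 for Ptgfr (adjusted p = 0.000494), 4.20 for Cyp4f14 (adjusted p = 0.0331) and 3.03 for Cyp4f18 (adjusted p = 0.0367). Ptger3 and Ptgfr passed the filter on dim genes only through C57B6-No1 mHep, so their difference was built in and their p-values are a description. Of 18 groups of arrays checked for a single array far from the others by Dixon's test, 0 had one.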

How the results depend on the processing

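The alternatives with readings raised to the background limit and those within 1 scan were chosen after seeing the data. Most calls of single genes that an alternative ended or added are given with the results. The others were Cyp4f14 between media, ended with detected probes (5.51, adjusted p = 0.0864) and the authors' table (5.52, adjusted p = 0.0801), and, added by the authors' table, Pla2g4a against primary cells (5.04, adjusted p = 0.0356) and the Alox5 response (-1.75, adjusted p = 0.05). Where a value changed, the cause was not tested. The untested mHep minus eHep differences of Ptges, Alox5, Alox5ap and Ptger4 changed sign on leaving out 1 mouse (-2.02 to 0.08, -2.39 to 0.36, -0.57 to 1.55 and -0.54 to 0.74). Alox5ap (-0.50) and Ptger4 (-0.76) did so within the later scan and over 14 arrays (-0.04 and -0.19), and Ptger4 with the mean of all probes (-0.13). With normexp background, Ptgs2 was -2.91 and Hpgd 2.98 in mHep against eHep, where 2 other pathway genes were higher. Against primary cells 4 others were lower, and Ptges (-0.74), Alox5 (-0.67) and Ptger4 (-0.31) turned sign. Between the mice 2 members and 2 others were higher and 5 others lower, and for the response 1 member and 4 others were higher, with Ptgs2 at -2.46 and Ptger4 at -0.19. With quantile normalization, the percentile of detected probes or the authors' table, 0 other genes passed between media. Quantile normalization and the authors' table each gave 1 member higher against primary cells, and the table of the authors gave 1 member lower for the response. With no filter, 2 others were higher in mHep, and 1 member and 17 others were lower against primary cells. With the mean of all probes, Ptger4 was -0.37 against primary cells, and for the response 1 member was lower and Ptgs2 was -0.29. With raised readings, 2 others were higher in mHep, Ptges (-0.35), Alox5 (-0.79) and Ptger4 (-0.24) turned sign against primary cells, and for the response 1 member was lower and Ptgs2 was -0.94. With no replicate block, 0 others passed between media, and with 14 arrays as samples 3 were higher and 4 lower. Within the earlier scan 5 others were higher in mHep, and against primary cells 1 member was higher, 7 others were lower and Ptges was -0.16. Within the later scan 2 others were higher in mHep, 13 were higher between the mice with Alox5ap at 0.38, and for the response 15 were higher and 1 lower, with Ptger4 at -0.12. With C57B6-No1 arrays alone, 5 members were higher and 1 member and 6 others were lower against primary cells. The slide as a block gave Alox5ap 0.18 for the level and Ptgs2 -0.71 for the response, and the scan as a block gave Alox5ap 0.38 and 17 others higher for the response.

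Leaving out 1 mouse gave 2 to 4 others higher and 0 to 1 lower between media, 2 to 4 lower against primary cells, and Alox5 at -0.46 to 2.21 there, the lowest without C57B6-No1. Leaving out 1 array gave 8 to 12 others higher and 5 to 10 lower between the mice (5 without the second mHep array of 129S1-No1), and for the response 2 to 3 members and 5 to 10 others higher, with Ptgs2 at -0.11 to 1.2. The count of 5 was found without any 1 array of 129S1-No1. Over all genes, 267 passed between media, 110 with quantile normalization, 105 with detected probes, 176 with normexp, 658 with no filter, 2 without the mouse block, 5024 over arrays, and 1519 and 470 within the earlier and later scan. Of these calls 75.3% were higher in mHep, 85.5% with quantile normalization and 91.4% with detected probes. Against primary cells 37.7% were higher, 58.7% with quantile normalization and 50.2% with detected probes, and the median of all genes was -0.25, 0.29 and 0.27 in that order. In that comparison 1960 genes passed, 10839 with no filter, 5220 within the earlier scan and 4755 with C57B6-No1 arrays alone. Between the mice 5492 passed for the level, 2565 with normexp and 7351 within the later scan. For the response 2613 passed, 610 with normexp, 6236 with the scan as a block and 5723 within the later scan. Array numbers did not pair the samples (r between -0.136 and 0.692 for equal numbers), and that replicate block changed no call of a named gene, with 4 members higher and 3 lower for the level and 9 others higher for the response. Signal over background limits the primary array most.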
